A study of Mus musculus with 4 samples.

Results

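CTCF binding was described at 10 potassium channel genes of the heart: Kcnh2, Kcnj2, Kcnj3, Kcnj5, Kcnj11, Abcc8, Kcnj8, Abcc9, Kcnd2 and Kcnip2. The genes lie in 8 loci, because Kcnj11 and Abcc8 are neighbours on chromosome 7 and Kcnj8 and Abcc9 are neighbours on chromosome 6. A locus was the annotated gene span plus 100 kb beyond either end on mm10, and its members were the peak summits of the conservative list that fell inside it. The 8 loci held 81 of the 54309 summits of that list. Chromatin immunoprecipitation with sequencing against CTCF was done on whole heart tissue of adult B6CASTF1/J females, aged 2 months. These mice are the F1 cross of C57BL/6J and CAST/EiJ. Tissue was pooled: pool G and pool H each joined 2 heart biosamples, and each was sequenced as 2 technical libraries. The labels give pool G as biological replicate 2 and pool H as biological replicate 1, with 1 shared donor identifier, so how far the pools are independent is not known. The series holds 1 tissue with no untreated or altered group, so every comparison is a description without a test. The peak lists hold no expression values, so the tissue label was not checked against marker genes, and binding cannot be assigned to myocytes or to other cells of the heart.

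CTCF is a zinc finger protein that binds DNA through a long motif with a direction. It halts the cohesin complex as cohesin extrudes loops of chromatin, and loops often form between sites whose motifs point toward each other, called convergent sites. Potassium channels carry the outward currents that repolarise the cardiac action potential and hold the resting potential. Their pore subunits are often paired with accessory subunits that set trafficking, gating or the response to metabolites.

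The sequences give the reference bases at the strongest site with a recognisable motif in each locus and at member promoters with a motif. A site was scored by a 12-base CTCF core with at most 1 mismatch whose centre lay within 100 bp of the summit. Each line gives the C57BL/6J reference of GRCm38.p6 (mm10), 30 bases, 5′ to 3′ on the strand of the core, and the capitals mark the core. Cores were searched in this reference alone, and the CAST/EiJ alleles of these mice were not examined. The Kcnj3 locus held no summit with a core and has no line. The first 7 lines are the strongest site of each of the other loci, and the last 3 are promoter sites.
Kcnh2 locus, chr5:24393516-24393545, minus strand: gtccactgtCCACCAGGGGGTgctgtttct
Kcnj2 locus, chr11:111042379-111042408, minus strand: gtcttgtaaCCACAAGGTGGCgcaataggg
Kcnj5 locus, chr9:32405481-32405510, plus strand: cttaaatggCCAGCAGGTGGTgctatgtac
Kcnj11 and Abcc8 locus, chr7:46096264-46096293, plus strand: cctctgtggCCAGCAGGTGGCaccataacc
Kcnj8 and Abcc9 locus, chr6:142785533-142785562, minus strand: cgatgccctCCACTAGAGAGCactgtaatg
Kcnd2 locus, chr6:21795134-21795163, plus strand: cggttactaCCAGCAGGGGGAaccagagag
Kcnip2 locus, chr19:45746525-45746554, plus strand: taaacacgcCCACCAGAGGGCgctagttcc
Kcnj11 promoter, chr7:46100793-46100822, plus strand: cagcctccgCCGCCAGAGGGCgccagatcg
Abcc9 promoter, chr6:142701832-142701861, minus strand: tcaagtgcaCCAGTAGGGGGActaagccct
Kcnip2 promoter, chr19:45815885-45815914, minus strand: cccccagccCCAGCAGGTCGCtgcgccgcc

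The loci ranged from 1 listed summit to 19. The Kcnh2 locus held 19 summits, Kcnj8 with Abcc9 17, Kcnip2 16, Kcnj11 with Abcc8 11, Kcnj5 7, Kcnd2 6, Kcnj2 4 and Kcnj3 1. Per length, the 8 windows together, 2.60 Mb, held 31.2 summits per Mb, against 19.9 over the genome. Windows drawn in the same way around the 21938 protein-coding genes had a median of 36.8 summits per Mb, with quartiles of 17.8 and 58.5. Kcnh2, at 81.9 summits per Mb, stood at the 90.1th percentile of those windows. Kcnip2, at 71.4, stood at the 84.5th. Kcnj3, at 2.76 summits per Mb, stood at the 9.36th percentile and Kcnd2, at 8.40, at the 14.8th. The windows also differed in gene content: 9 protein-coding genes touched the Kcnh2 window, 6 each those of Kcnj8 with Abcc9 and Kcnj11 with Abcc8, 5 that of Kcnip2, 4 that of Kcnj5, 2 each those of Kcnj2 and Kcnd2, and 1 that of Kcnj3. These gene counts are for windows of unlike length and were not scaled to length, unlike the summits per Mb. The part of gene density in the order of the loci by summits was not tested.

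**Figure D1:**
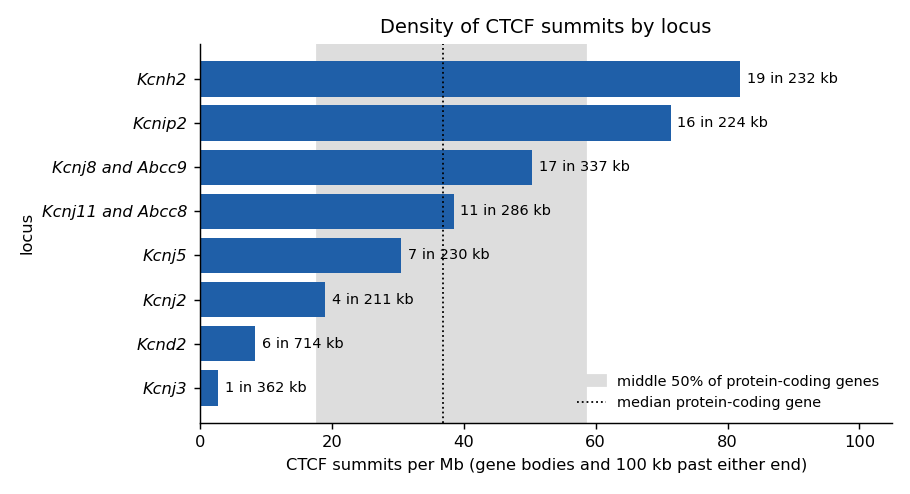
CTCF summits per Mb in each of the 8 loci (bars, labelled with the count and window length), with the range between quartiles (grey band) and the median (dotted line) of like windows around all protein-coding genes. Kcnh2 at 81.9 and Kcnip2 at 71.4 lie above the upper quartile of 58.5, and Kcnd2 at 8.40 and Kcnj3 at 2.76 lie below the lower quartile of 17.8.

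At the genes themselves, 4 of the 10 members had a summit at a promoter, meaning no more than 1 kb from any annotated start of transcription: Kcnj2, Kcnj11, Abcc9 and Kcnip2. Among all protein-coding genes the share was 34.6%. In the gene bodies, 8 of the 10 members held at least 1 summit, 16 summits in all, against 50.9% of protein-coding genes. That share is not matched for length: it was 92.9% among genes of at least 100 kb, as Kcnj3, Abcc9 and Kcnd2 are. The short bodies of Kcnj2 and Kcnj8 held none. Signal here is the peak caller's enrichment value for a peak, and its unit is not stated. Signals were compared within a list, apart from candidates of the ranked list of both pools and the single-pool values. The pool G and pool H values come from separate lists and are set side by side and as a ratio. The median signal of the 81 summits was 352 (lowest 23.7, highest 781), and that of the whole list was 286. Of the 81 summits, 47 were at or above the list median, 58.0% (exact binomial 95% interval 46.5 to 68.9%, counting error only), beside the 50% that holds for the list by construction. The interval takes the summits as independent, although they cluster in 8 loci and lie in 78 peak intervals.

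**Figure D2:**
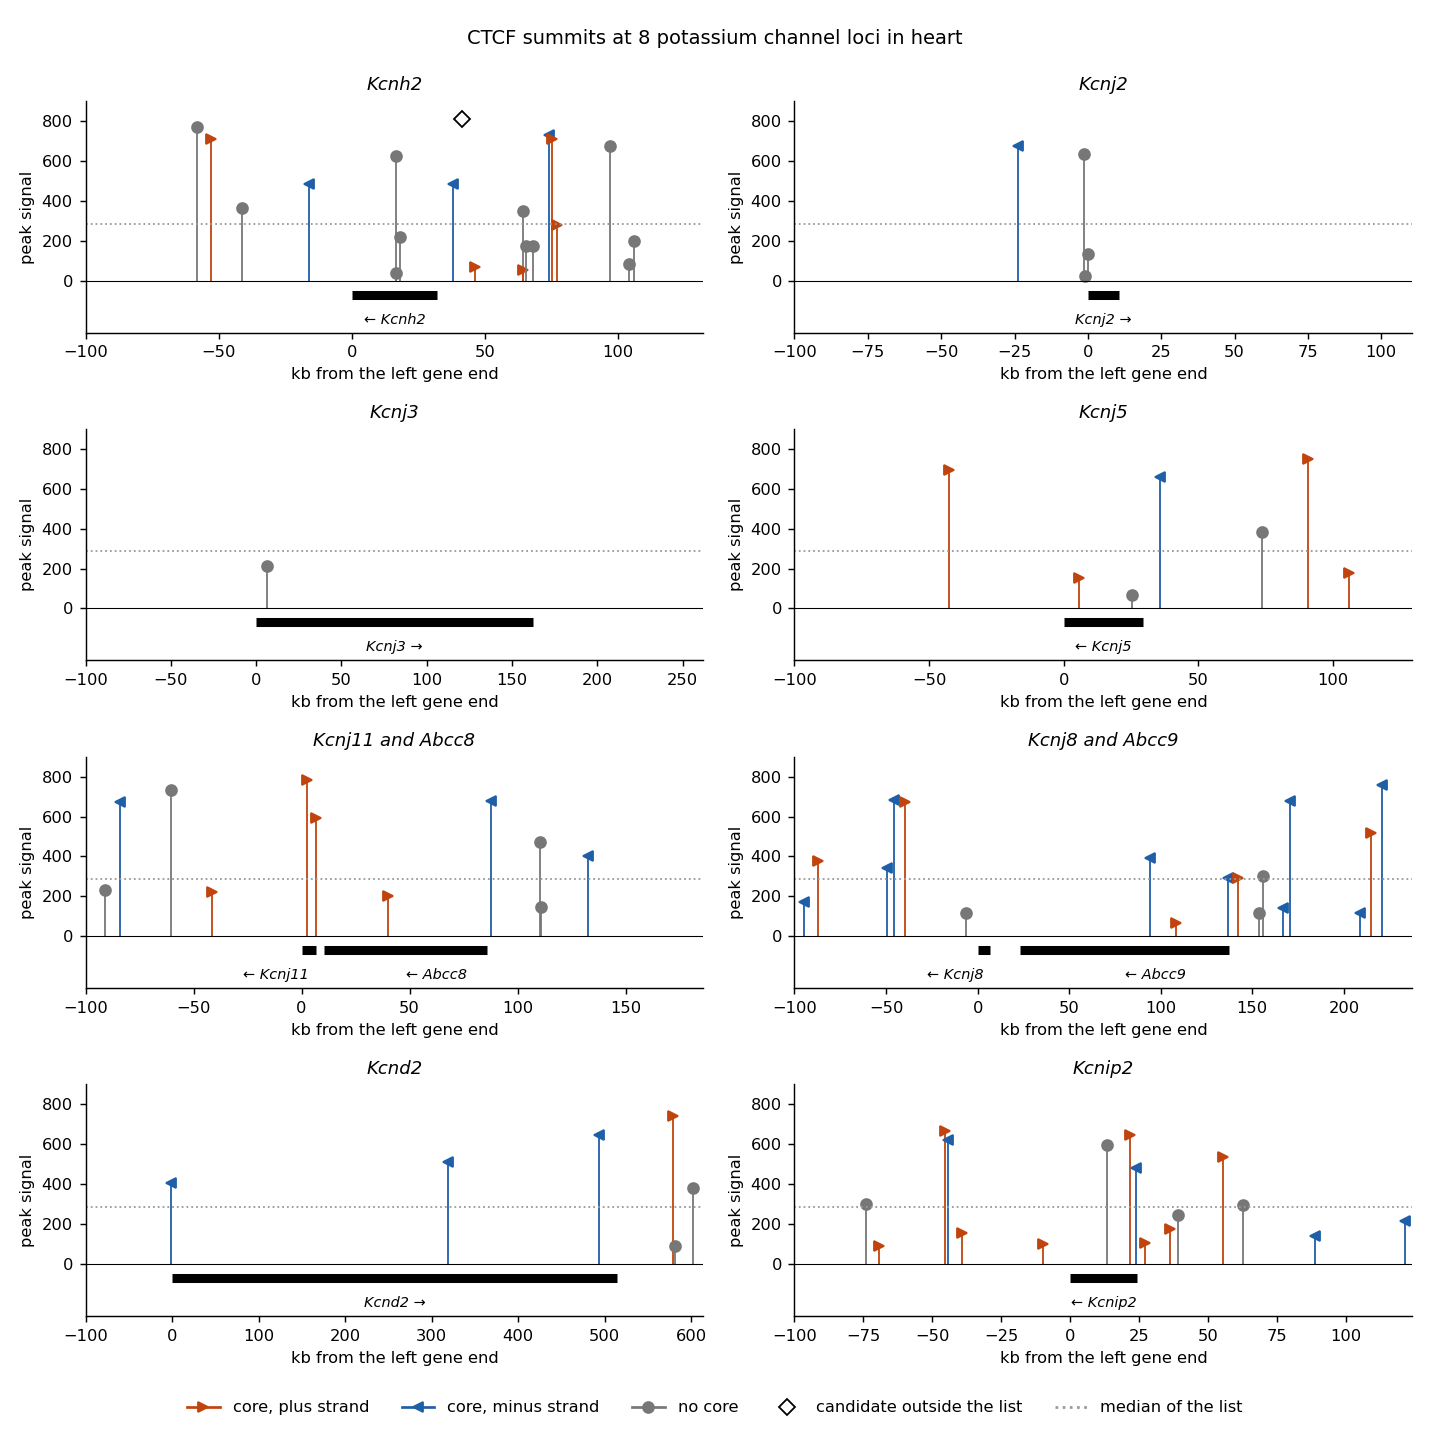
CTCF summits across each locus, with peak signal on the y axis and distance from the left gene end in kb on the x axis; right-pointing and left-pointing triangles mark cores on the plus and minus strand, circles mark summits without a core, black bars the member genes, the dotted line the list median of 286, and the diamond a strong candidate outside the list. The 4 summits of Kcnj2 all lie upstream of or at its start, and the only summit of Kcnj3 lies inside the gene.

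Kcnh2 encodes the pore of the rapid delayed rectifier current, IKr, one of the repolarising currents. The gene lies on the minus strand of chromosome 5 (chr5:24319589-24351604). Its body held 3 summits, all intronic and without a core; the stronger interval also overlaps the annotated gene Gm15589. The strongest, 15.5 kb inside the gene at chr5:24335838-24336320, had a signal of 627, with 339 in pool G and 287 in pool H. A second summit called in the same interval had 40.1 and a pool G value of 48.7, with no summit of pool H nearby. The other intronic summit had 221, with 120 in pool G and 102 in pool H. No conservative summit lay within 1 kb of an annotated start of Kcnh2.

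On either side of Kcnh2 the nearest summits with a core were of like strength and pointed the same way. The one beyond the 3′ end, 16.2 kb from the gene, had a signal of 482 (276 in pool G, 204 in pool H). The one 6.09 kb upstream of the start also had 482 (265 and 216). Both cores lay on the minus strand, the strand of the gene, which is a tandem arrangement. The strongest summits of the window lay farther out. An intergenic summit without a core, 90.3 kb from the start on the 3′ side at chr5:24261052-24261514, had 769 (412 in pool G, 361 in pool H). The promoter of Abcb8, a mitochondrial ABC transporter, carried 730 (377 and 349) on a minus-strand core, and a second summit just inside the gene carried 713 (359 and 353) on a plus-strand core, so these neighbours diverged. A plus-strand site 84.8 kb from the start had 711 (366 and 348).

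The Kcnh2 window also held the strongest candidate that the conservative list left out. It lay 9.42 kb upstream of Kcnh2 at chr5:24360766-24361263, had a signal of 808.5 in the ranked list of both pools, and held no core. The signals were nearly equal in the pools, 405 in pool G and 408 in pool H. Its scaled IDR, a transformed irreproducible discovery rate for which 540 stands for an IDR of 0.05 and larger values for lower rates, was 253. It passed in the list of pool G alone and not in that of pool H. Failing candidates were common at the top of the signal scale. Of ranked candidates with a signal of 600 to 800, 99.7% passed the IDR threshold, against 922 of 1152 at 800 to 850 and 62 of 207 at 850 to 900. Above 900, 0 of 13 passed it. No summit of the 8 loci in the conservative list had a signal above 800, and the cause of this pattern was not tested.

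Kcnj2 encodes Kir2.1, the main pore of the inward rectifier current, IK1, which holds the resting potential of ventricular myocytes. It lies on the plus strand (chr11:111066164-111076821). All 4 summits lay upstream of the gene or at its start. A promoter summit 6 bp from the start site, at chr11:111066061-111066268, had a signal of 135 (74.5 in pool G, 62.1 in pool H) and no core. It was much weaker than a summit 1.34 kb upstream, which had 634 (342 and 294) and whose best match to the core had 2 mismatches. A minor summit of the same interval had 23.7, the lowest of all 81, and matched no summit in either pool. The only core of the locus, exact and on the minus strand, lay 23.8 kb upstream at a summit of 674 (350 and 321).

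Downstream of Kcnj2 the list was empty for a long stretch. The next summit lay 380 kb from the promoter summit, far past the window. Over the list the median distance between consecutive summits was 16.6 kb, and 1.55% of these distances were longer than the one after Kcnj2. Such shares, here and below, count each distance once and are not weighted by length. A stretch picked because a gene lies in or beside it is more likely to be a long one. The shares therefore do not show how unusual such a stretch is for a gene. The first core on that side, 369 kb beyond the gene end, was also on the minus strand and had a signal of 516.

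Kcnj3 and Kcnj5 encode Kir3.1 and Kir3.4, which together form the acetylcholine-activated current, IKACh, that slows atrial and nodal cells under vagal stimulation. Their loci differed. Kcnj3 (plus strand, chr2:55435970-55598145) had 1 summit in the whole window. It lay in an intron 6.25 kb from the start at chr2:55442084-55442360, had a signal of 213 (108 in pool G, 102 in pool H), below the list median, and held no core. The stretches without a summit on either side measured 136 kb upstream and 399 kb downstream. In the list, 6.60% and 1.46% of distances between neighbours, not weighted by length, were longer.

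Both nearest cores of Kcnj3 lay outside the 100 kb window. A plus-strand core with a signal of 555 lay 129 kb upstream, and a minus-strand core with 234 lay 244 kb past the gene end, so the gene sat between convergent sites. Kcnj3 is long, and 92.9% of the 2492 protein-coding genes of at least 100 kb held a body summit. Its body held 6.17 summits per Mb against a median of 20.5 in those genes, the 15.1th percentile.

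Kcnj5 (minus strand, chr9:32314707-32344350) had 7 summits in its window, 2 of them in its introns and both weak. One, 23.9 kb from the start, had a signal of 154 (87.8 in pool G, 65.7 in pool H) on a plus-strand core. The other, 4.15 kb from the start, had 70.1 (40.2 and 30.1) and no core. Strong sites lay outside the gene. A minus-strand site 6.20 kb upstream had 661 (340 and 323), and a plus-strand site 42.5 kb beyond the 3′ end had 694 (379 and 320), so these nearest outside cores of Kcnj5 were convergent. The strongest of the window, 61.1 kb upstream, had 750 (389 and 362) on a plus-strand core. Kcnj1, the neighbouring gene for the renal channel ROMK, held an intronic summit of 383 (213 and 170) without a core.

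Kcnj11 and Kcnj8 encode Kir6.2 and Kir6.1, the pores of ATP-sensitive channels, and Abcc8 and Abcc9 encode the sulfonylurea receptors SUR1 and SUR2, which wrap the pore and carry its nucleotide sensing. Each pore gene lies beside a receptor gene, and in both pairs both genes are on the minus strand. Kcnj11 was the member with the strongest binding. Inside Kcnj11 (chr7:46093953-46100764) an intronic summit at chr7:46095985-46096550 had a signal of 781, the highest of the 81, with 421 in pool G and 361 in pool H and an exact plus-strand core. It passed in the conservative list but in neither thresholded list of a single pool. Its promoter summit, 55 bp from a start site at chr7:46100585-46100997, had 593 (306 and 288), also on a plus-strand core, opposite to transcription. The 2 sites lay 4.54 kb apart.

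Abcc8 (chr7:46104523-46180033) had no promoter summit. Its body held 1 summit of 200 (109 in pool G, 88.9 in pool H) on a plus-strand core, 46.0 kb from the start. A minus-strand site 1.80 kb upstream of the start had 677 (358 and 323). Beyond Kcnj11, 41.6 kb from its 3′ end, a plus-strand site in an intron of Nomo1 had 223 (124 and 95.4). The pair of genes thus sat between convergent nearest cores, with 3 plus-strand cores between them. The promoter of Nomo1, a gene of an endoplasmic reticulum membrane protein, had the next strongest summit of the window, 732 (384 and 355), whose best match to the core had 3 mismatches.

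Kcnj8 (chr6:142564837-142571614) had no conservative summit in its body or at its promoters. A candidate 119 bp from a start site had a signal of 69.9 (33.7 in pool G, 31.9 in pool H) and was called only in the second, more inclusive list of both pools. Kcnj8 lay in a stretch of 101 kb without a summit, and 9.59% of distances in the list, not weighted by length, were longer. The cores that flanked it were convergent and 134 kb apart: a plus-strand site of 672 (354 and 324) 39.8 kb beyond its 3′ end, and a minus-strand site of 395 (222 and 177) in an Abcc9 intron.

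Abcc9 (chr6:142587862-142702315) held 3 body summits. Besides the intronic site of 395, an intronic plus-strand site had 65.2 (38.0 in pool G, 26.1 in pool H). The promoter summit, 369 bp from a start site at chr6:142701689-142702030, had 292 (172 and 123) on a minus-strand core. Just upstream, 76 bp from an Abcc9 start, a candidate without a core had 122 and differed between pools, with 43.6 in pool G and 80.0 in pool H. It passed in the list of pool H and in the second list of both pools, not in the conservative list. The body density of Abcc9 was 26.2 summits per Mb, the 60.2th percentile of long genes.

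Outside the pair, the nearest cores were both on the plus strand: the site of 672 beyond Kcnj8 and a site of 291 (162 in pool G, 128 in pool H) 4.58 kb upstream of Abcc9. The strongest summits of the window were on the minus strand. One in an untranslated exon of Sult6b2, a sulfotransferase gene, had 759 (426 and 333), at a scaled IDR of 792. Others had 685 (376 and 311), 52.3 kb from the Kcnj8 start on the 3′ side, and 678 (383 and 298), 33.2 kb upstream of Abcc9.

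Kcnd2 encodes Kv4.2, a pore of the fast transient outward current, Ito, which acts early in repolarisation. Kcnip2 encodes KChIP2, the accessory subunit that brings Kv4 channels to the surface. The pore gene had few listed summits for its length and the subunit gene many. Kcnd2 (plus strand, chr6:21215503-21729805) held 2 intronic summits over 514 kb, or 3.89 per Mb, the 9.97th percentile of long genes. The one 320 kb from the start had a signal of 512 (282 in pool G, 229 in pool H), and the one 494 kb from the start had 645 (332 and 310). Both cores were on the minus strand. A site 1.49 kb upstream of the start, outside the 1 kb promoter limit, had 406 (214 and 190), also on a minus-strand core.

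Between that upstream site and the first intronic summit of Kcnd2 lay 321 kb without a summit. Of distances in the list, not weighted by length, 1.99% were longer. The following stretch measured 174 kb. Past the gene end, 65.3 kb away in an intron of Tspan12, a tetraspanin gene, a plus-strand site had 742 (404 and 335), the strongest of the window. The nearest cores outside Kcnd2 therefore pointed away from each other.

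Kcnip2 (minus strand, chr19:45791839-45816061) is a short gene with 3 body summits, all above the list median. Its promoter summit, 74 bp from a start site at chr19:45815716-45816137 in an untranslated exon, had 481 (267 in pool G, 216 in pool H) on a minus-strand core. An intronic site 2.62 kb from the 5′ end had 646 (343 and 301) on a plus-strand core, convergent with the promoter core at a distance of 2.46 kb. An intronic summit without a core, 10.9 kb from the 5′ end, had 597 (304 and 298). The nearest cores outside the gene were weak and both on the plus strand: 103 (58.1 and 44.1) 10.009 kb beyond the 3′ end and 107 (69.8 and 37.1) 2.96 kb upstream. A close convergent pair 1.15 kb apart lay on the 3′ side of the gene, with the strongest summit of the window, 666 (349 and 309), on the plus strand and one of 621 (333 and 294) on the minus strand.

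**Figure D3:**
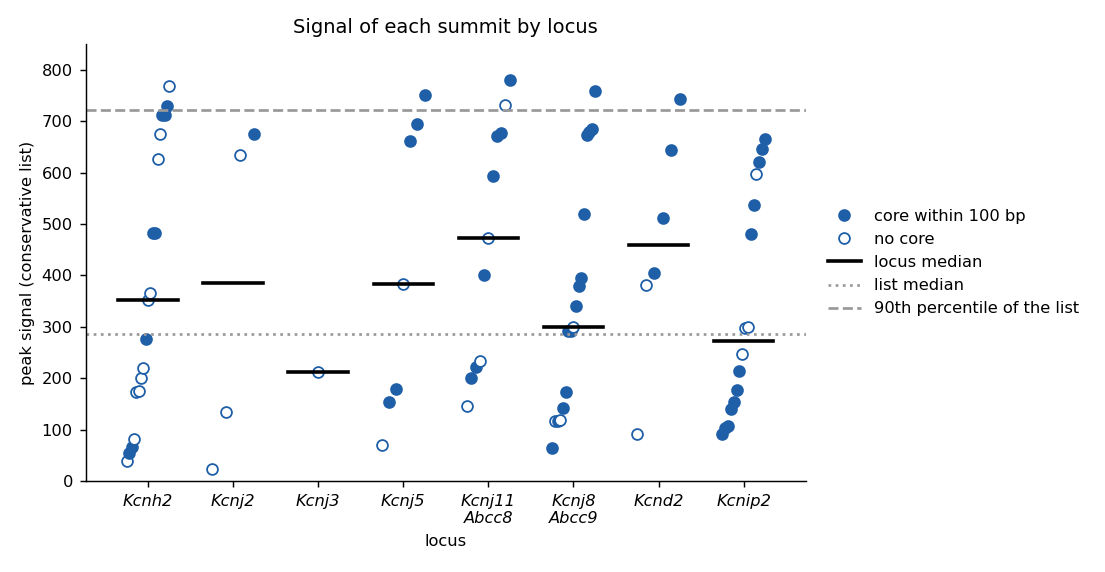
Peak signal (y axis) of every summit by locus (x axis), filled with a core and open without, with the median of each locus as a black line and the median and 90th percentile of the list as dotted and dashed lines. The medians run from 213 in the Kcnj3 locus, with 1 summit, to 473 in the Kcnj11 and Abcc8 locus, and all other loci span weak to strong summits.

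Among 27 further potassium channel genes of the heart, listed with earlier results known, 9 had a promoter summit and 17 a body summit, beside 34.6% and 50.9% of all protein-coding genes. Gene length was not matched in these shares. The strongest promoter summit was that of Kcna7, a voltage-gated channel gene, with a signal of 757 (404 in pool G, 348 in pool H). Kcnab2, which encodes a beta subunit of voltage-gated channels, had 353 (172 and 181). The strongest member promoter, that of Kcnj11 at 593, was below that of Kcna7 and above that of Kcnab2. Promoters of Kcnq1 and Kcnd3 also carried summits, of 239 and 148, and those of Kcne1, Kcna4, Kcna5 and Kcnj12 carried none in the list.

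Over all 8 loci, 15 of the 81 summits lay within 1 kb of a start site of any gene, beside 20.4% of the list. A further 3 lay in exons, 35 in introns and 28 between genes. Signals at starts and elsewhere in the loci had the same median, 352, and over the list the medians were 251 and 297. Of the 15 summits at starts, 8 lay in the Kcnh2 window, so their median rests largely on that locus. A signal above the 90th percentile of the list, 723, was seen at 7 of the 81 summits, where 10% of the list lies by construction. An IDR of 0.01 was met by 77 of the 81, beside 95.4% of the list.

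The core was found at 51 of the 81 summits, 63.0% (exact binomial 95% interval 51.5 to 73.4%), beside 66.1% of the list. In windows placed 1 kb from the summits of the list, the share was 5.80%. Of the 51 cores, 27 were exact, 27 lay on the plus strand and 24 on the minus strand, and the median distance from core to summit was 5.5 bp. Summits with a core had a median signal of 481 and those without 241, and over the list these medians were 361 and 193. A core was present at 6 of the 15 summits near starts and at 45 of the 66 others, beside 43.5% and 71.9% in the list. Of the 30 summits without a core, 24 had a best match with 2 mismatches. Some strong summits lacked the core, 5 of 24 above a signal of 600, beside 19.1% of such summits in the list. They were the Kcnj2 upstream site, the Kcnh2 intronic site, the 769 site of the Kcnh2 window and the promoters of Asic3 and Nomo1.

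Among the 51 cores were 38 different 12-base sequences, and 1 of them recurred often. The sequence CCAGAAGAGGGC made up 11 of the 51 cores, 21.6%, beside 18.8% of cores in the list. It occurred in 4 loci, those of Kcnh2, Kcnj5, Kcnj8 with Abcc9, and Kcnip2. In 10 of the 11 it lay in soft-masked sequence, which marks annotated repeats, as in 99.7% of the list. These sites were weaker, with a median signal of 180 (92.2 to 482) against 565 for the other 40 cores, and 163 against 443 over the list. Of the 11, 3 were at or above the list median. These were the upstream flank of Kcnh2 at 482, the intronic Abcc9 site of 395 and the upstream flank of Abcc9 at 291. The Kcnh2 flank was the only site of the 11 outside soft-masked sequence. Among the weaker sites was the nearest outside core on the 3′ side of Kcnip2, at 103. In the RefSeq promoter windows on GRCm38.p6, from 250 bases before to 50 after a start, 0 of the 8 members matched by symbol held the core on either strand, and 8.38% of 32851 windows did. Kcnj11 and Abcc8 had no entry there.

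In the order along the chromosome, the cores of the loci formed 44 neighbour pairs at a median distance of 24.5 kb. Of these, 12 were convergent, 27.3%, beside 24.1% of all neighbouring cores of the list. Of the 41 pairs under 100 kb apart, 11 were convergent, beside 22.4% of such pairs in the list. At any distance a further 12 were divergent and 20 tandem, 45.5% beside 51.9% of the list. Kcnj8 with Abcc9 held 5 of the convergent pairs, Kcnip2 3, Kcnh2 2, and Kcnj5 and Kcnj11 with Abcc8 1 each. By the nearest outside cores, 3 of the 8 loci lay between convergent sites (Kcnj3, Kcnj5 and Kcnj11 with Abcc8), 4 between tandem sites and 1, Kcnd2, between divergent sites. Of all protein-coding genes, 27.9% lay between convergent sites. With the recurrent core left out, an alternative chosen after seeing the data, the count was 4 of 8: Abcc9 with Kcnj8 became convergent and Kcnh2 divergent, against 27.3% of genes.

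The pools gave like values at these sites, which the conservative list had kept by an IDR threshold. In the ranked list of both pools each candidate pairs a first and a second call. Of first calls, 71.7% were pool H records, and of second calls, 77.3% were pool G records. Sites that ranked unlike in the pools tended to be left out beforehand, so the likeness is in part fixed by the list. Both pools had a summit within 100 bp for 79 of the 81, and the median ratio of pool G to pool H signal was 1.25 (lowest 0.942, highest 1.95). Over 53538 summits of the list it was 1.23, with 95% of values between 0.984 and 1.82. Pool G was the higher in 77 of the 79, the same direction as the list median of 1.23. The pool values come from separate lists of unknown read depth, so the level of the ratio was not read further. No summit of the loci departed from the median ratio by more than 2-fold, beside 0.403% of the list. The 3 outside the central 95% were a promoter summit of Slc4a2 in the Kcnh2 window at 1.95, the upstream flank of Kcnip2 at 1.88, and an intronic summit 11.8 kb upstream of Kcnip2 at 0.942. The thresholded list of pool G held 74 of the 81, beside 90.5% of the list, and that of pool H 72, beside 87.9%. Both held 70 and neither held 5. The sites missing from a pool list were mostly weak, and the exceptions were the Kcnj11 intronic site of 781, absent from both, and the Kcnh2 window site of 769, absent from that of pool G.

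**Figure D4:**
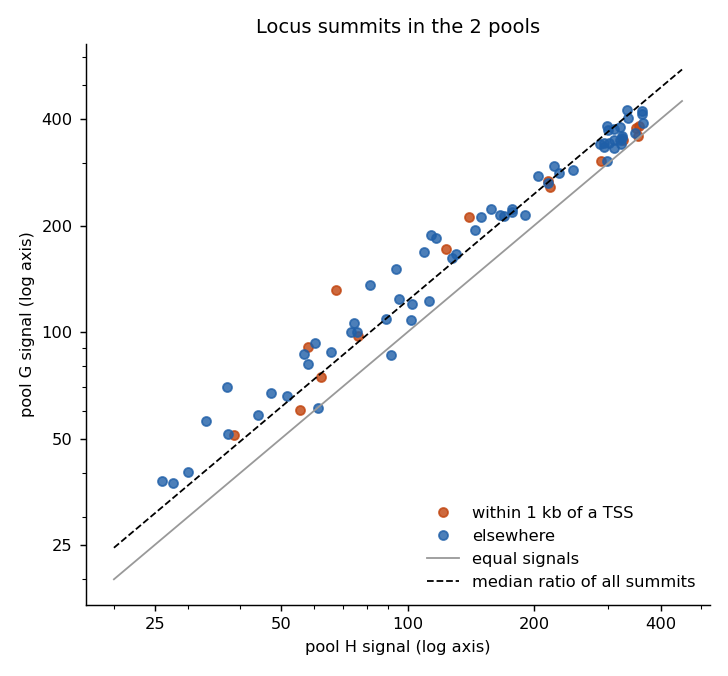
Signal of the 79 summits with both values in pool H (x axis, log) and pool G (y axis, log), orange near a start site and blue elsewhere, with lines for equal signals (grey) and for the median ratio of the whole list, 1.23 (dashed). The points lie along the dashed line, and 77 of the 79 have the higher value in pool G.

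Below the conservative list, the ranked list of both pools held 127 further candidates in the loci. Of these, 125 had a signal under 100, the median was 21.3, and 11 were called in the second list. Apart from the candidate of 808.5 upstream of Kcnh2 and the Abcc9 candidate of 122, all were weaker than 100. They included a site of 75.0 (49.6 in pool G, 26.4 in pool H) 439 bp from an internal start of Kcnh2, with a plus-strand core, which passed in the second list and in that of pool G. With this site and the Kcnj8 candidate, the second list placed summits at 6 of the 10 member promoters, beside 38.9% of protein-coding genes in that list.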

How the data were processed

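CTCF ChIP-seq peak lists from 4 libraries of 2 heart pools were used as the authors deposited them. Which list came from which pool was taken from the deposited readme texts. Per the labels, the assembly was mm10. Neither the aligner nor the peak caller is named, and the read depth is not known; these were not given in the sources used here. Of 8 deposited lists, 7 were used; 1 ranked list of both pools was not. The deposited signal and scaled IDR values are scores: signal is the authors' peak-caller enrichment, and a scaled IDR of 540 stands for 0.05 and of 830 for 0.01.

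Genes came from GENCODE M21. Summits were placed by position, a promoter being within 1 kb of any annotated start. Pool signals are those of the nearest summit within 100 bp in each pool's ranked list. The core search was tested on simulated data. The alternative weight matrix was learned from 5030 exact cores on chromosomes without a member, with a threshold passed by 1% of windows 1 kb from summits. Promoter windows were from RefSeq, and 8 of 10 members matched. Confidence intervals are exact binomial, cover counting error only and take summits as independent, although they cluster in loci. Alternatives covered the list, IDR, window, overlap, start sites, core and pool matching. The members, lists and rules were chosen with earlier results of these data known. Named were, per locus, the 3 strongest summits, all at member promoters, up to the 5 strongest in bodies and the nearest outside cores, and other genes only where such a summit touched them. The Kcnj1 intronic summit, the 711 site of the Kcnh2 window, the candidates outside the conservative list, other listed promoters, the recurrent core and single summits named for their pool ratio or missing core were chosen after their values were seen. The values of 1 listed gene are not reported here. Scripts ran in Python 3.11.15 (scipy 1.17.1, pandas 2.3.3, numpy 2.4.6; plots in matplotlib 3.10.9).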

Additional observations from a re-analysis of the deposited data

How the results depend on the processing

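Of 98 alternative values, 86 stayed within 1.5 times the main count, or within its interval or spread. The other 12 were as follows. A window of 200 kb gave 129 summits instead of 81, and starts within 5 kb gave 7 members with a promoter summit instead of 4. No share of all protein-coding genes is given for 5 kb, so that count has no background here. The median signal was 194 in the list of pool G and 162 in that of pool H, where the list medians were 152 and 135. The share of locus summits with a core was 33.3% for exact cores, 29.6% by a weight matrix and 49.4% without the recurrent core. The last setting was chosen after seeing the data. Under the same settings the shares over the list were 33.0%, 31.6% and 53.7%. Convergent pairs numbered 7 of 20 neighbour pairs with exact cores and 5 of 17 by the matrix, instead of 12 of 44. No convergent share over the list is given for exact cores or the matrix, so those counts have no background here. The density of Kcnj2 was 36.1 per Mb with 50 kb windows and 9.74 with 200 kb, and that of Kcnd2 was 4.88 with 50 kb. Densities around all protein-coding genes are not given for these window sizes.

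No paired analysis was possible because the lists are per pool or of both pools, the shared replicate numbers name technical libraries, and no result comes from a test. No list leaves out a single library, and the lists of single pools leave out the other pool. Read depth is unknown, so a site missing from a list is not shown to be unbound, and no interval was given for single signals.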
